A study of Homo sapiens with 6 samples.

Results

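The genes described here are 36 assembly factors of the large (60S) ribosomal subunit, taken by gene name from a table of 60612 human genes, in which each name matched 1 row. Messenger RNA was sequenced from PANC-1, an established cell line from a human pancreatic carcinoma, in 2 groups of 3 libraries. One group received 50 µM D(+)-raffinose pentahydrate, a hydrated plant trisaccharide, for 24 h, and the other is labelled only as PANC-1 cells, with no vehicle or time in its own label. Both groups are the same cell line in serum-containing medium, and nothing says that the libraries came from separate cultures, so the spread behind each p-value may be only technical. The title of the study speaks of PI3K/AKT signalling and of cell death and growth, and not of ribosome assembly.

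The large ribosomal subunit is built in the nucleolus around pre-ribosomal RNA transcribed by RNA polymerase I. Assembly factors bind the precursor in order, cut and modify its RNA, load the ribosomal proteins and the 5S ribonucleoprotein, and are released by ATPases and GTPases before the particle passes the nuclear pore and is finished in the cytoplasm. These factors are not part of the mature ribosome. Their genes are known targets of the transcription factor MYC and are active in growing cells, tumour cell lines included.

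Promoter sequence is shown first because a motif bound by MYC and its partners, the E-box CACGTG, is the feature of these genes that can be read from the genome. RefSeq windows of 300 bases (GRCh38.p14, 250 bases before to 50 bases after an annotated start) were found for 30 of the 36 genes, in 36 windows because some genes have several starts. No window was found for RRP1B, DDX18, RPF2, BOP1, MAK16 or RRS1. CACGTG reads the same on both strands, and 11 of 36 windows (30.6%) held it, against 7.26% of all 35116 windows and 9.21% of the 16748 windows of genes tested here. The motif occurred at 12 places in 10 genes, and at 8 of them its first base lay after the start site. Each site is given 5′ to 3′ on the gene's strand, with the E-box in capitals and up to 12 bases on either side.
MRTO4, chr1:19251807-19251836, plus strand: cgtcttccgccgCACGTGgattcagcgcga
GNL2, chr1:37595917-37595946, minus strand: gtacgtcgtgcaCACGTGgtccggcgtggt
GNL3, chr3:52686026-52686055, plus strand: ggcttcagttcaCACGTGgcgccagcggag
NOC3L, chr10:94362903-94362932, minus strand: tagggacttcggCACGTGtgtcattccccg
NOP2, chr12:6568242-6568268, minus strand: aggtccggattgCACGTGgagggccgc
PES1, chr22:30591880-30591909, minus strand: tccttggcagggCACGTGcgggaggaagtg
DDX54, chr12:113185522-113185551, minus strand: ctcagcggaggtCACGTGgtcaccgcacct
SURF6, chr9:133336395-133336424, minus strand: ggagcacaggaaCACGTGcgggaccggggt
MDN1, chr6:89819932-89819961, minus strand: tttctgtcccacCACGTGctgtgttcgcga

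The first base of the motif was at position 15 in MRTO4, 4 in GNL2, 7 in GNL3, 20 in NOC3L, 36 in NOP2 and 14 in PES1, counted from the start site as 1, and at -61 in DDX54, -224 in SURF6 and -155 in MDN1. The sites not printed are a second one in MDN1 at 28 and those of EBNA1BP2 at -237 and 43 of different starts. The variant CACGCG (searched on both strands) was in 27.8% of the member windows, against 11.4% of all windows and 16.9% of those of tested genes. For CCAAT the shares were 27.8%, 34.6% and 34.5%, and for the GC box GGGCGG 52.8%, 45.0% and 64.6%. The promoters of WDR18, the gene with the most negative fold change below, and MRTO4 held no CACGTG in the 250 bases before the start. They are shown with the other motifs in capitals. In MRTO4 these are CACGCG at -67 and ATTGG, the reverse complement of CCAAT, at -80. In WDR18 they are CGCGTG, the reverse complement of CACGCG, at -56 and GGGCGG at -10.
MRTO4, chr1:19251555-19251804, plus strand: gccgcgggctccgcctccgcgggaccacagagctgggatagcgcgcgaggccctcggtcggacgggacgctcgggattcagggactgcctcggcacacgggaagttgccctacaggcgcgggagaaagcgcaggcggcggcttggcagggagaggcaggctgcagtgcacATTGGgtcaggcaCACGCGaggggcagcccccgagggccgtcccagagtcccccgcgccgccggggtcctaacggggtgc
WDR18, chr19:984095-984344, plus strand: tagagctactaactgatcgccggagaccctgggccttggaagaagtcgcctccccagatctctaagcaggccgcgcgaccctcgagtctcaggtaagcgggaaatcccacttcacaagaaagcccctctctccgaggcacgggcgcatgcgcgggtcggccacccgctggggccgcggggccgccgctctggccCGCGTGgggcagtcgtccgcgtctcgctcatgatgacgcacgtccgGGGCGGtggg

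A match is a string of letters and not a measured binding site. The 10 genes with CACGTG in a window had a median log2 fold change (raffinose over untreated) of -0.23, and the 20 with a window but no match had one of -0.21.

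Most of the assembly factors had slightly lower levels in raffinose-treated than in untreated cells, and none passed edgeR's test across the transcriptome. The 36 were chosen with earlier results of these data known, so the counts here describe them and are not independent evidence. Of the 36, 34 had a negative log2 fold change, against 49.0% of the 18863 genes tested. The median was -0.21, against 0.006 for all tested genes. In 24 of them every raffinose library lay below every untreated library, as it did for 10.9% of tested genes, and in 0 the order was the opposite (10.6% of tested genes). edgeR's quasi-likelihood test with Benjamini-Hochberg adjustment called 0 of the 36 lower and 0 higher (0.0848% and 0.0371% of tested genes), at an adjusted p under 0.05. At an unadjusted p under 0.05, 22 were lower and 0 higher, against 7.08% and 6.21% of tested genes. DESeq2 called 8 of them lower (PES1, BOP1, RRS1, RRP1, WDR18, NIP7, EIF6 and MRTO4) and 0 higher, where it called 1.87% and 1.12% of the genes to which it gave an adjusted p.

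Most of these differences were small. WDR18, RRS1, BOP1, NIP7 and MDN1 had a fitted level over 20% under that of untreated cells, MDN1 with groups that overlapped, while 17 were 10% to 20% lower and 14 were within 10%. All 36 passed the filter on low counts, with 1739 to 43448 counts per gene and library. The factors are abundant transcripts, with a median of 20.9 FPKM (fragments scaled by transcript length and library size) against 2.11 for all tested genes, and abundant genes more often had negative fold changes. Among 3760 tested genes with at least 10 FPKM, 63.9% had a negative fold change, 14.7% were lower at an unadjusted p under 0.05 and 20.4% had all raffinose libraries below all untreated ones. For the 27 assembly factors at that level, the same shares were 92.6%, 63.0% and 70.4%. DESeq2 called 3.27% of the 3760 genes lower, and 7 of the 27 factors (25.9%).

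**Figure D1:**
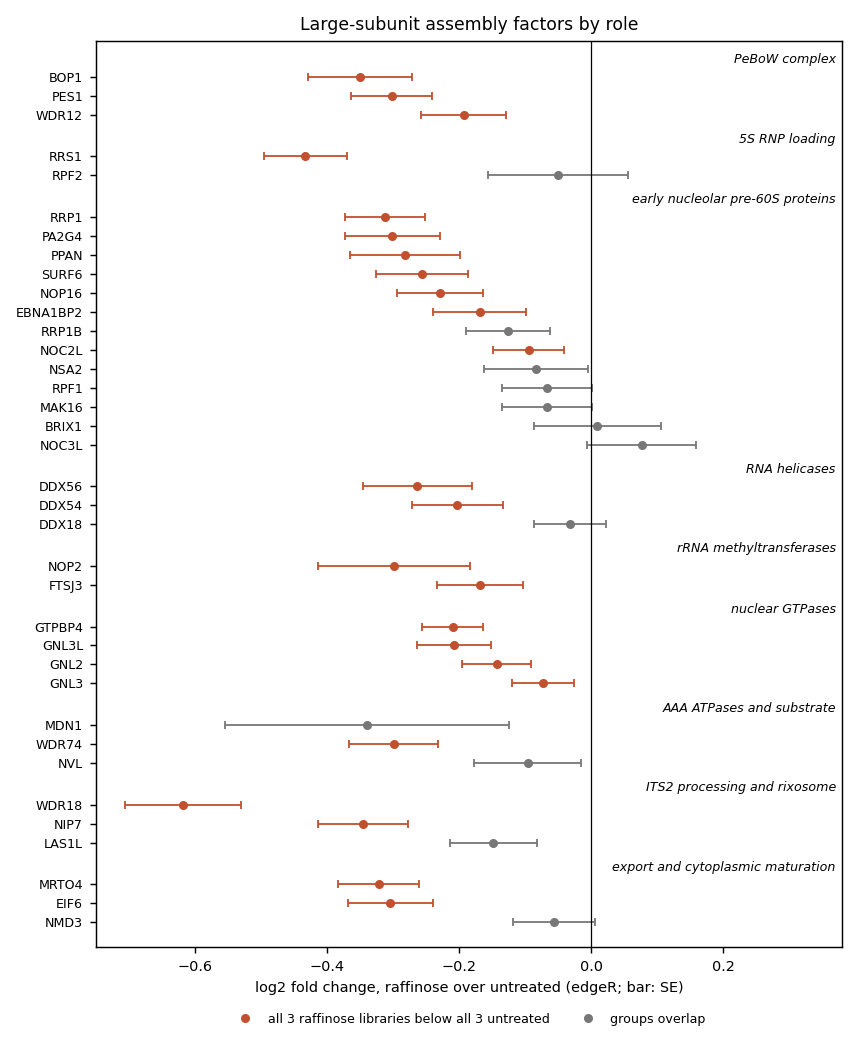
Log2 fold change of each assembly factor, raffinose over untreated, with a standard error derived from the edgeR F statistic (3 libraries a group), by role. The points of 34 genes lie left of 0, WDR18 at -0.62 being farthest, and the orange points are the 24 genes whose groups did not overlap.

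Each raffinose library had a negative median over the 36 genes. Relative to the mean of the untreated libraries on the log2 CPM scale (counts scaled to library size with TMM factors), the median over the 36 genes came to -0.19, -0.16 and -0.23 for the raffinose libraries (replicates 1 to 3), against 0.03, -0.03 and 0.005 for the untreated libraries. The corresponding medians over all tested genes were 0.009, 0.011 and 0.011 in raffinose libraries and 0.003, 0.003 and 0.002 in untreated libraries. Of the 36 genes, 33, 34 and 33 lay under the untreated mean in the raffinose libraries, and 10, 25 and 16 did so in the untreated ones. Their summed level was 4595, 4563 and 4378 CPM in raffinose libraries, against 5306, 5046 and 5188 CPM in untreated libraries, so that the groups did not overlap. In bulk RNA, a change in the share of cells with a given expression and a change in RNA per cell cannot be told apart, and a level relative to the library says nothing of total RNA per cell.

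**Figure D2:**
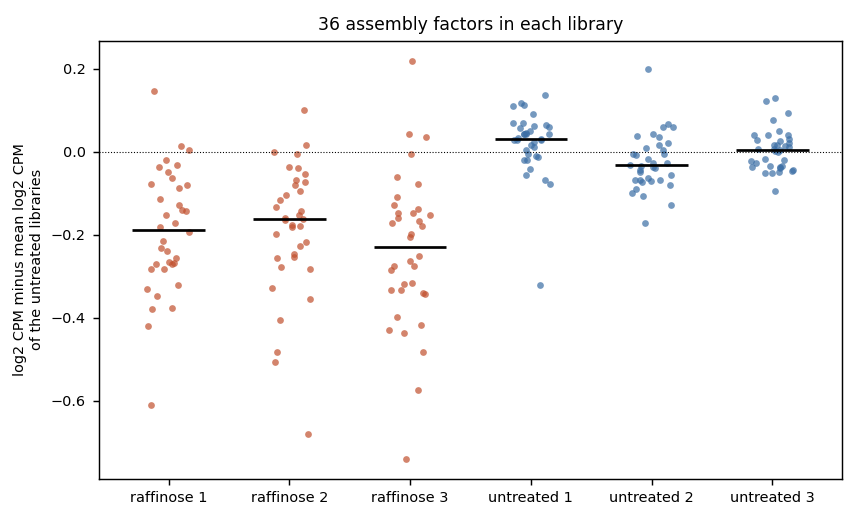
Log2 CPM of each of the 36 assembly factors minus its mean over the untreated libraries, by library, with the median as a black bar. The 3 raffinose medians lie between -0.23 and -0.16 and the 3 untreated medians between -0.03 and 0.03.

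WDR18 and LAS1L belong to the rixosome, the complex that cuts the second internal transcribed spacer (ITS2) of the pre-rRNA, and NIP7 is a small protein needed for pre-rRNA processing. WDR18 (ENSG00000065268, chromosome 19, 984332 to 998438, plus strand in the deposited table, which names no build) had 45.5, 48.8 and 41.6 CPM in raffinose libraries, against 70.1, 64.4 and 74.0 CPM in untreated libraries. No raffinose library reached an untreated one, and the log2 fold change was the most negative of the 36 genes, at -0.62 (SE 0.09), which edgeR did not call (adjusted p = 0.0929) and DESeq2 did (adjusted p = 3.77e-05). NIP7 had 49.6, 46.3 and 44.0 CPM with raffinose, against 58.5, 59.6 and 59.7 CPM in untreated cells (log2 fold change -0.35, SE 0.07, edgeR adjusted p = 0.146, DESeq2 adjusted p = 0.0228). The untreated values of NIP7 lay within 2 CPM of each other and above every raffinose value. LAS1L, the nuclease of the complex, overlapped between the groups with 142, 158 and 145 CPM in raffinose libraries and 168, 157 and 169 CPM in untreated libraries.

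RRS1 and RPF2 form the pair that brings the 5S ribonucleoprotein (5S rRNA with RPL5 and RPL11) to the precursor. RRS1 had 66.3, 61.6 and 63.6 CPM in raffinose libraries, against 88.7, 81.8 and 87.9 CPM in untreated libraries, a log2 fold change of -0.43 (SE 0.06, edgeR adjusted p = 0.0966, DESeq2 adjusted p = 7.57e-04). Its partner RPF2 had 109.3, 124 and 102 CPM with raffinose, and 119, 102 and 126 CPM in untreated cells, with a log2 fold change of -0.05 (SE 0.11). The groups were apart for RRS1 and interleaved for RPF2, and whether the fold changes of the pair differ was not tested.

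PES1, BOP1 and WDR12 make up the PeBoW complex, which is needed for maturation of the 28S and 5.8S rRNAs. The scaffold PES1 had 129.8, 130.4 and 125 CPM in raffinose libraries, against 158, 149 and 167 CPM in untreated libraries. BOP1 had 84.9, 92.4 and 77.4 CPM, against 112, 104 and 108.5 CPM, and WDR12 had 79.0, 78.4 and 71.5 CPM, against 89.8, 86.7 and 85.1 CPM, in the same order of groups. No value of a raffinose library reached that of an untreated one for any of the 3 subunits, as was so for 10.9% of tested genes. Their log2 fold changes were -0.30 (SE 0.06) for PES1, -0.35 (SE 0.08) for BOP1 and -0.19 (SE 0.06) for WDR12, with edgeR adjusted p of 0.151, 0.178 and 0.295. DESeq2 called PES1 (adjusted p = 0.0358) and BOP1 (0.0458) but not WDR12 (0.338).

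**Figure D3:**
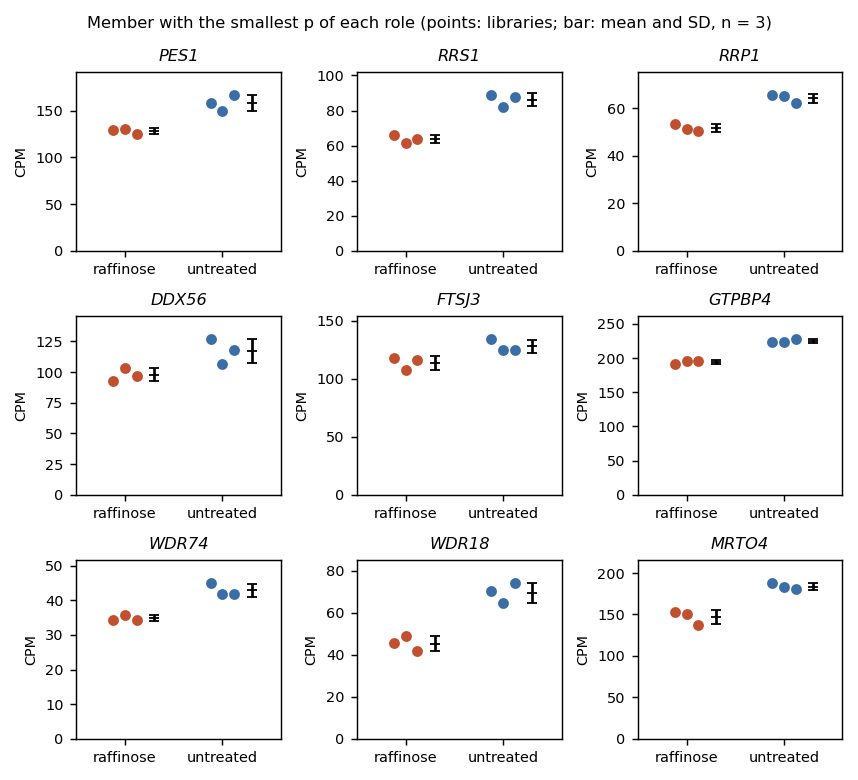
CPM per library of the assembly factor with the smallest unadjusted p in each of the 9 roles, with the mean and SD (n = 3) beside the points, raffinose left of untreated. In all 9 panels the 3 raffinose values lie below the 3 untreated values. WDR18 has 41.6 to 48.8 CPM against 64.4 to 74.0 CPM. Choosing by the smallest p favours genes with separate groups, so the panels do not show how each role behaved as a whole. Among the factors not drawn here, 12 had groups that overlapped.

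Of 3 late-acting factors, MRTO4 and EIF6 had separate groups and NMD3 did not. MRTO4 holds the place of the stalk protein P0 until the particle reaches the cytoplasm (known from yeast), EIF6 keeps the new subunit from joining the small subunit too early, and NMD3 is the adaptor for nuclear export. MRTO4 had 152, 151 and 137 CPM in raffinose libraries, against 188, 183 and 180.1 CPM in untreated libraries. EIF6 had 211, 215 and 193 CPM with raffinose, against 263, 243 and 259.7 CPM in untreated cells. Both genes were lower in every raffinose library, with log2 fold changes of -0.32 (SE 0.06) and -0.30 (SE 0.06), edgeR adjusted p of 0.146 and 0.159 and DESeq2 adjusted p of 0.0231 and 0.0464. NMD3 overlapped, with 54.2, 54.2 and 57.1 CPM with raffinose and 56.8, 59.7 and 55.5 CPM in untreated cells (log2 fold change -0.06, SE 0.06).

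The nuclear GTPases GTPBP4, GNL2, GNL3 (nucleostemin) and GNL3L act at checkpoints of the nuclear particle. GTPBP4 had 192, 196 and 196 CPM in raffinose libraries and 223, 224 and 228 CPM in untreated libraries, with a log2 fold change of -0.21 (SE 0.05). GNL3L had 73.2, 76.3 and 74.9 CPM with raffinose, against 86.0, 83.8 and 89.4 CPM in untreated cells (-0.21, SE 0.06). For GNL2 the values were 162, 163 and 161 CPM with raffinose, against 182, 171 and 184 CPM without it (-0.14, SE 0.05), and for nucleostemin 217, 212 and 217 CPM, against 231, 222 and 227 CPM (-0.07, SE 0.05). In CPM the raffinose libraries lay below the untreated ones for all 4 GTPases, as they did for 10.9% of tested genes. The gap for GNL3 was about 5 CPM. In FPKM the GNL3 groups overlapped, at 56.5, 54.5 and 57.5 with raffinose and 57.5, 57.3 and 57.9 in untreated cells. None was called by edgeR (adjusted p from 0.172 to 0.565) or DESeq2 (from 0.112 to 0.767).

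MDN1 and NVL are AAA ATPases that pull factors off the particle, and WDR74 is a factor released by NVL. WDR74 had 34.3, 35.9 and 34.4 CPM in raffinose libraries, against 44.9, 41.8 and 41.8 CPM in untreated libraries, with a log2 fold change of -0.30 (SE 0.07, edgeR adjusted p = 0.176). NVL overlapped between the groups, with 31.4, 27.5 and 28.5 CPM with raffinose and 29.9, 31.5 and 32.0 CPM in untreated cells. MDN1, whose transcript is the longest of the members at 18413 bases, had 64.7, 54.0 and 89.2 CPM in raffinose libraries and 69.3, 99.4 and 94.1 CPM in untreated libraries. Its log2 fold change was -0.34 (SE 0.22, edgeR adjusted p = 0.56), and it was -0.56 without raffinose replicate 3 and -0.19 without raffinose replicate 2. It varied most among the members, with a coefficient of variation of 26.0% over raffinose and 18.4% over untreated libraries, where the medians over members were 5.27% and 3.95%.

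Long transcripts as a set, MDN1 included, also varied between libraries. Over 414 genes of at least 10 CPM with a coding transcript of 10000 bases or more, the median log2 deviation from the mean of the 6 libraries came to 0.03, -0.07 and 0.13 for the raffinose libraries and to -0.20, 0.11 and 0.04 for the untreated libraries, both by replicate number. Within each group the order of the libraries is that of MDN1. For 9040 other genes at that level the same median was between -0.012 and 0.015. The part of transcript length in the MDN1 values was not tested.

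NOP2 and FTSJ3 methylate the ribosomal RNA, NOP2 on a cytosine base and FTSJ3 on ribose. FTSJ3 had 118, 107 and 116 CPM in raffinose libraries, against 134, 125 and 125 CPM in untreated libraries (log2 fold change -0.17, SE 0.06). NOP2 had 132, 135 and 101 CPM with raffinose, against 152, 156 and 146 CPM in untreated cells (-0.30, SE 0.12), so that raffinose replicate 3 stood apart, and the log2 fold change was -0.18 without it. A second gene on the same strand, ENSG00000285238, spans NOP2, and the counts assigned to it numbered 0, 0 and 2121 for the raffinose libraries, against 0, 45 and 21 for the untreated libraries. With both genes summed, the level was 132, 135 and 134 CPM in raffinose libraries, against 152, 156 and 146 CPM in untreated libraries, and the log2 fold change was -0.18 (SE 0.05, edgeR adjusted p = 0.25). The NOP2 row on its own is uncertain in raffinose replicate 3, and the summed gene was lower in 3 of 3 raffinose libraries.

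The helicases DDX18, DDX54 and DDX56 remodel RNA in early particles. DDX56 had 92.9, 103 and 96.6 CPM in raffinose libraries, against 127, 107 and 118 CPM in untreated libraries (log2 fold change -0.26, SE 0.08). DDX54 had 69.5, 72.6 and 63.2 CPM, against 77.7, 79.0 and 79.6 CPM (-0.20, SE 0.07). Both were lower in each raffinose library, while DDX18 did not separate, with 129, 134 and 125 CPM with raffinose and 128, 136 and 133 CPM in untreated cells.

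The largest role holds 13 proteins of early nucleolar particles, of which 7 had separate groups and 11 a negative fold change. Of all tested genes, 10.9% had every raffinose library below every untreated one and 49.0% had a negative fold change. RRP1 had 53.4, 51.0 and 50.6 CPM in raffinose libraries, against 65.4, 65.0 and 62.0 CPM in untreated libraries, with a log2 fold change of -0.31 (SE 0.06), and was the one member of this role that DESeq2 called (adjusted p = 0.0292; edgeR adjusted p = 0.146). Its paralog RRP1B, which lies near it on chromosome 21, had 74.9, 79.1 and 74.9 CPM with raffinose and 78.8, 86.7 and 84.4 CPM in untreated cells, with groups that overlapped (-0.13, SE 0.06). The fold changes of the paralogs were not tested against each other.

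PA2G4, an ErbB3-binding protein that also associates with pre-ribosomes, was the most abundant factor. It had 577, 491 and 516 CPM in raffinose libraries, against 677, 633 and 642 CPM in untreated libraries (log2 fold change -0.30, SE 0.07, edgeR adjusted p = 0.191). Reads of near-identical copies could touch this value, since 5 rows named as PA2G4 pseudogenes held counts equal to 2.5% of those of the gene. The Brix-domain protein PPAN had 41.5, 48.8 and 42.8 CPM with raffinose, against 56.1, 53.2 and 52.4 CPM in untreated cells (-0.28, SE 0.08). SURF6, a nucleolar matrix protein, had 38.7, 40.4 and 39.2 CPM, against 49.1, 48.2 and 44.0 CPM (-0.26, SE 0.07). NOP16 had 108.7, 117 and 110.1 CPM, against 137, 123 and 133 CPM (-0.23, SE 0.07), and EBNA1BP2 had 373, 379 and 337 CPM, against 434, 388 and 402 CPM (-0.17, SE 0.07). In each of these 5 genes the raffinose libraries lay below the untreated ones, and none was called by either tool.

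The partners NOC2L and NOC3L, which travel with early precursors, differed in direction. NOC2L, also known as an inhibitor of histone acetylation, had 367, 379.5 and 349 CPM in raffinose libraries, against 398, 380.1 and 391 CPM in untreated libraries (log2 fold change -0.10, SE 0.05). NOC3L had 62.6, 62.4 and 72.7 CPM with raffinose and 59.5, 65.4 and 62.6 CPM in untreated cells (0.08, SE 0.08). The NOC2L groups were apart by less than 1 CPM, those of NOC3L overlapped, and the difference in direction was not tested.

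The remaining factors of this role overlapped between the groups. BRIX1, like RPF1 a Brix-domain protein, had 86.8, 70.2 and 80.5 CPM with raffinose and 84.7, 75.5 and 75.8 CPM in untreated cells, with a log2 fold change of 0.009 (SE 0.10). RPF1 was at 138.5 ± 4.27 and 145 ± 10.1 CPM, its partner MAK16 at 46.1 ± 2.32 and 48.3 ± 1.46 CPM and NSA2 at 177 ± 8.94 and 188 ± 16.1 CPM in raffinose and untreated cells (mean ± SD, n = 3 each). Their log2 fold changes were -0.07, -0.07 and -0.08.

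**Figure D4:**
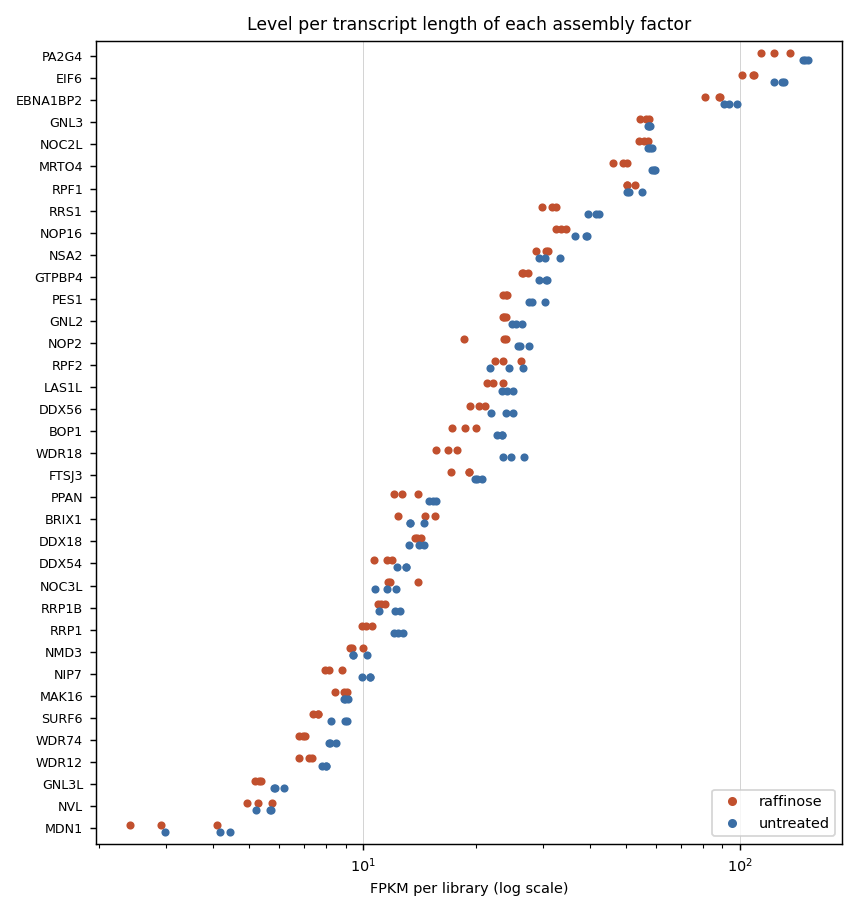
Deposited FPKM of each assembly factor in the 3 raffinose (orange) and 3 untreated (blue) libraries on a log axis, ordered by the mean of all 6. Levels span from 3.505 FPKM for MDN1 to 137 FPKM for PA2G4, far more than the distance between the groups of any gene.

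Levels per transcript length differed far more between factors than between groups. The mean of the 6 libraries was highest for PA2G4 (137 FPKM), EIF6 (117 FPKM) and EBNA1BP2 (90.1 FPKM) and lowest for GNL3L (5.62 FPKM), NVL (5.42 FPKM) and MDN1 (3.505 FPKM), a 39.1-fold range on the FPKM scale. Subunits of 1 complex differed in FPKM, which depends on the length assigned to each gene, and the annotation behind it is not given. In PeBoW, PES1 was at 23.9 ± 0.278 FPKM in raffinose and 28.7 ± 1.56 FPKM in untreated cells, BOP1 at 18.6 ± 1.37 and 23.2 ± 0.412 FPKM, and WDR12 at 7.10 ± 0.304 and 7.91 ± 0.117 FPKM (SD, n = 3 each). The FPKM of WDR12 was the lowest of the 3 in every library. Without scaling by length WDR12 was closer to BOP1. Its mean was 76.3 against 84.9 CPM with raffinose and 87.2 against 108 CPM in untreated cells. By FPKM RRS1 stood above its partner RPF2 in all 6 libraries. The values were 31.3 ± 1.37 against 24.0 ± 1.97 FPKM with raffinose and 41.2 ± 1.37 against 24.3 ± 2.45 FPKM in untreated cells. In CPM the order was the opposite, with means of 63.8 against 112 CPM with raffinose and 86.1 against 116 CPM in untreated cells.

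Other large-subunit factors outside the 36 also had mostly negative fold changes. Of 45 such genes, 33 had a negative log2 fold change (73.3%, against 49.0% of tested genes), and the median was -0.11. At an unadjusted edgeR p under 0.05, 13 were lower and 0 higher, against 7.08% and 6.21% of tested genes. edgeR called 0 of them (0.0848% of tested genes lower and 0.0371% higher). DESeq2 also called 0 (1.87% lower and 1.12% higher among genes with an adjusted p). The histone-binding factor GRWD1 had 67.98, 70.4 and 67.6 CPM in raffinose libraries, against 84.3, 79.9 and 78.2 CPM in untreated libraries. The log2 fold change was -0.24 (SE 0.06) for GRWD1, -0.24 (SE 0.07) for the nucleolar protein MYBBP1A, -0.31 (SE 0.09) for the helicase DDX31 and -0.29 (SE 0.09) for CCDC86. In 18 of the 45 the raffinose libraries were all lower, against 10.9% of tested genes. In 3 of the 45 they were all higher, a smaller share than the 10.6% of tested genes. These 3, chosen after their values were seen, were CEBPZ (0.11), HEATR3 (0.13) and SDAD1 (0.12).

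Factors that assemble the small subunit were read as well. Of 54 genes of the small-subunit processome and its later particles, 42 had a negative fold change (77.8%), with a median of -0.10. At an unadjusted edgeR p under 0.05, 16 were lower and 0 higher, against 7.08% and 6.21% of tested genes. edgeR called 0 of them (0.0848% of tested genes lower and 0.0371% higher). DESeq2 called 1 of the 54 lower, close to the 1.87% it called lower among genes with an adjusted p. That gene was UTP4, with 77.3, 83.2 and 71.7 CPM in raffinose libraries, against 102, 95.0 and 96.4 CPM in untreated libraries (log2 fold change -0.34, SE 0.07, DESeq2 adjusted p = 0.0455). By unadjusted edgeR p, KRR1 (-0.25), TSR1 (-0.21) and DDX47 (-0.24) came next. The 47 proteins of the large subunit itself had a median of -0.08 with 38 negative (80.9%). Of all tested genes 49.0% were negative, and of those with at least 10 FPKM 63.9%. Groups were separate in 0 of the 47, against 10.9% of tested genes lower and 10.6% higher. RPL23 (-0.26, SE 0.11) was the only one at an unadjusted edgeR p under 0.05, against 7.08% of tested genes lower. Whether the 36 assembly factors differ from these lists was not tested.

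**Figure D5:**
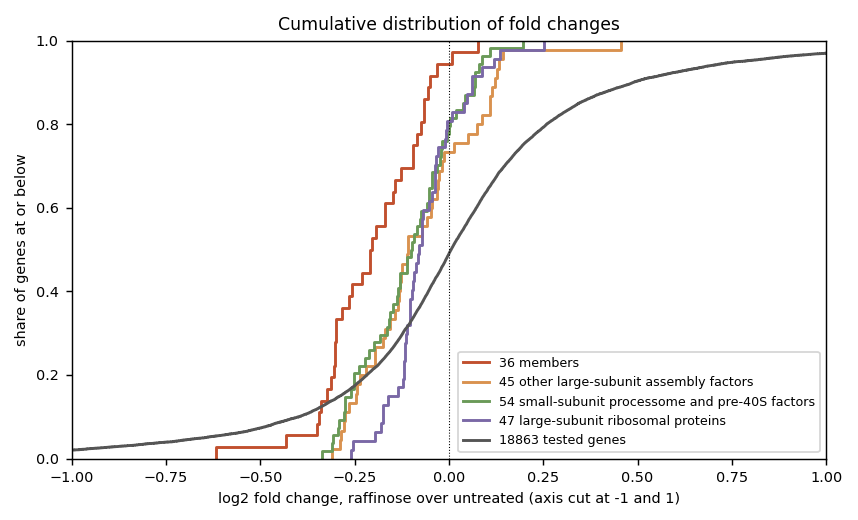
Cumulative share of genes by log2 fold change, raffinose over untreated, for the 36 assembly factors, 3 related lists and all 18863 tested genes. The curve of the assembly factors reaches a share of 94.4% at 0, where all tested genes reach 49.0%.

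The transcript of MYC itself differed between the raffinose libraries. It had 11.4, 65.7 and 61.3 CPM in raffinose replicates 1, 2 and 3, against 13.1, 7.99 and 12.3 CPM in untreated libraries (log2 fold change 2.05, SE 0.62, edgeR adjusted p = 0.263). Raffinose replicate 1, with MYC near the untreated values, had a median of -0.19 for the factors, and replicates 2 and 3, with higher MYC, had -0.16 and -0.23. Any relation between the MYC transcript and the factors was not tested.

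Some members share genomic sequence with a neighbour on the opposite strand, and whether counting used the strand is not given in the sources used here. Abundant neighbours were GNG5 beside RPF1 (159.8 against 51.6 FPKM), HIGD2A beside NOP16 (124 against 35.9 FPKM) and PSMC5 beside FTSJ3 (35.5 against 19.3 FPKM). Their log2 fold changes were -0.17, -0.20 and -0.12. PBRM1 beside GNL3 was at 5.40 against 56.9 FPKM, with a log2 fold change of -0.50. On the same strand, the readthrough gene PPAN-P2RY11 was at 0.389 FPKM against 14.2 FPKM for PPAN.

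Total counts ranged from 59723420 to 66063664 per library. Of the markers of the line, KRT8, KRT18 and VIM were above 1 FPKM, whereas KRT7, KRT19 and EPCAM were under it. Summed, these 6 markers were at 1365 to 1419 FPKM in raffinose libraries and 1667 to 1841 FPKM in untreated libraries, and their part in the result was not tested. Endothelial (5 genes), acinar (6) and endocrine (5) markers were each below 0.3 FPKM in sum in every library, and PRSS1, CPA1, CELA3A, PNLIP, AMY2A, INS, GCG, SST and CD3E had no reads. Of 6 leukocyte markers CD68 alone passed 1 FPKM (sum 7.00 to 9.48 FPKM with raffinose and 12.4 to 15.9 FPKM in untreated cells), and of 6 fibroblast markers COL1A1 and COL3A1 did (44.6 to 47.3 and 47.9 to 52.0 FPKM).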

How the data were processed

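Poly(A) RNA was turned into dUTP-marked libraries and read in pairs on a NovaSeq instrument, per the labels' protocols. StringTie 1.3.4d, HISAT2 2.0.4, cutadapt 1.9, DESeq2 and edgeR are listed, with no role, in the submitters' processing notes. What build, annotation and strand setting were used is not given in the sources used here. One table was deposited. In it the authors give FPKM values and estimated counts per gene and library, per the file headers. The deposited counts are whole numbers in which low multiples of 4 are over-represented, and dividing by 4 was an alternative.

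The counts were tested with edgeR 4.0.16 in R 4.3.3 (filterByExpr with a minimum count of 10, TMM, glmQLFit and glmQLFTest, no covariate), over 18863 genes, with Benjamini-Hochberg adjustment and calls at 0.05. The common biological coefficient of variation was 27.1%. SE is the absolute log2 fold change divided by the square root of the edgeR F statistic. DESeq2 1.42.0 and limma 3.58.1 were alternatives. The members, roles and lists were chosen with earlier results of these data known, and no test over a list was made. The rule for named genes took all members, up to 4 genes of each list with the smallest p, and MYC. CEBPZ, HEATR3, SDAD1 and the genes that overlap members were named outside it, after their values were seen. Promoter letters are from RefSeq, GRCh38.p14.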

Additional observations from a re-analysis of the deposited data

How the results depend on the processing

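The direction of 32 of the 36 assembly factors was the same under all 18 alternatives. It turned for DDX18 with limma on log2(FPKM + 0.1), to 0.0055, and on log2(FPKM + 1), to 0.0052. With each library left out in turn BRIX1 ranged from -0.0611 to 0.089 (negative on leaving out the first or last raffinose library, or the second or last untreated one), RPF2 from -0.133 to 0.0144 (positive without replicate 3 of either group) and NOC3L from -0.0002 to 0.114 (negative without raffinose replicate 3). None of these was called. edgeR and limma called 0 members in every setting. With a library left out, 17 to 21 members were lower at an unadjusted edgeR p under 0.05. In those fits 1890 to 2364 of 19518 to 19661 tested genes had such a p in either direction. For 15 members the p was under 0.05 in all 6 of those fits. The fits share libraries, and the same count over all genes was not made. DESeq2 called 8 members lower, and 10 on the genes that edgeR tested, an alternative chosen after seeing the data that added GTPBP4 and WDR74. The cause of the difference between the tools was not tested. The median log2 fold change of the members was -0.167 with limma on log2(FPKM + 0.1) and -0.15 on log2(FPKM + 1). The median over all tested genes moved as well, to 0.038 and 0.019, from 0.006 with edgeR. Over all genes, against 16 lower and 7 higher, the calls were 269 and 162 with DESeq2, 363 and 242 with DESeq2 on the genes edgeR tested, 27 and 15 at a mean FPKM of at least 1, and 0 and 0 with the replicate number as a block. Higher calls were 11 with counts divided by 4 and 11 with limma on log2(FPKM + 0.1). With a library left out, lower calls ranged from 4 to 13 and higher calls from 0 to 15 (4 and 0 without untreated replicate 3, 8 and 15 without untreated replicate 1). The labels give no pairing, and libraries with the same replicate number had correlations of -0.05, -0.09 and 0.002 between their deviations from the group means. With the replicate block 19 members were lower at an unadjusted edgeR p under 0.05 and 0 were called. In that fit 1932 of 18863 tested genes had such a p in either direction. The median SE of a member's log2 fold change was 0.0675, which limits what 3 libraries a group can show. NOP2 was summed with its overlapping gene after seeing the data.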
